A study of Mus musculus with 20 samples.

Results

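Gene sets named for the response to ultraviolet (UV) light were followed through 7 comparisons of mouse myeloid cells and melanoma lines. Of the 3886 distinct gene sets listed in the enrichment reports, 56 were taken. They were chosen by name: the name held UV, UVB or UVC as a word followed by another, or began with DACOSTA. Of these, 14 names end in DN, for genes lowered in the original experiment, 13 end in UP, and 29 carry neither ending. Enrichment scores from these reports had already been seen when the sets were chosen, so the values below describe the sets and no test was made on them.

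The libraries came from C57BL/6 mice. Myeloid cells had been isolated by depletion of CD3e-positive cells from bone marrow of healthy (3 libraries), B16F10 tumor-bearing (3) and YUMM3.3 tumor-bearing (2) animals, and from spleen in the same 3 conditions (2 libraries each). The B16F10 and YUMM3.3 melanoma lines themselves were each represented by 3 libraries from cells kept for 4 days in culture. No group carried a UV treatment in the labels, and the labels give neither the age of the animals nor which marrow and spleen came from the same animal. Depletion removes T cells and leaves other non-myeloid cells in place, and no marker of any cell type could be checked, because the files hold 1 score per gene set and no value per gene or per library. In such bulk samples, fewer cells of a type and less RNA per cell cannot be told apart.

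UV light makes bulky lesions in DNA that stop RNA polymerase as it transcribes. Nucleotide excision repair removes these lesions, and ERCC3 (also called XPB) is a helicase of TFIIH, the complex that opens DNA in repair and at the start of transcription. Because a lesion is more likely to lie in a long transcription unit, sets of genes lowered after UV are known for long genes, whereas sets raised after UV hold many stress-response genes. Gene length was not measured here, since the reports do not give the members of a set.

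The quantity followed is the normalised enrichment score (NES), which says how far the members of a set lie toward one end of the genes ranked by the difference between the groups, scaled for set size. Below, "scored" gives the NES, signed so that a positive value means higher in the first-named group. A set is called when its deposited false discovery rate q (FDR q) is below 0.05. No spread between animals or cultures could be computed, and the deposited q does not measure it. For B16F10-bearing against healthy spleen the smallest nonzero nominal p was 0.00103, while an exact one-sided relabelling of 2 against 2 libraries cannot give less than 0.167, so these p-values cannot have come from relabelling libraries. The same held for YUMM3.3-bearing against healthy marrow, at 0.00149 against a smallest possible value of 0.1. NES leaves a gap around 0, and medians over few sets can fall on either side of it, so counts are given beside them.

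The largest scores were in the marrow of YUMM3.3-bearing mice, where sets lowered by UV were lower than in healthy marrow and sets raised by UV were higher. Of the 14 DN sets, 6 were called lower and 0 higher, beside 6.52% lower and 9.68% higher among all 3883 listed sets. Of the 13 UP sets, 7 were called higher and 0 lower. The median NES was -1.54 for the DN sets and 1.67 for the UP sets, against 0.74 for all listed sets.

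DACOSTA_UV_RESPONSE_VIA_ERCC3_COMMON_DN is a set of 391 genes lowered by UVC in human fibroblasts with either of a pair of ERCC3 mutations. It ranked 1 of 1823 on the lower side of this comparison and scored -2.72 in the authors' deposited table, where its FDR q is listed as 0. DACOSTA_UV_RESPONSE_VIA_ERCC3_XPCS_DN, lowered in fibroblasts with the mutation of combined xeroderma pigmentosum and Cockayne syndrome, ranked 2 and scored -2.63 in the authors' deposited table. The set from the trichothiodystrophy allele, DACOSTA_UV_RESPONSE_VIA_ERCC3_TTD_DN, was also lower and scored -2.09 (FDR q = 0.00219) in the authors' deposited table. The ERCC3 sets thus lay on the same side whichever mutation they came from, though genes that they share could not be counted.

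Sets from other cells and laboratories fell on the same side. DAZARD_RESPONSE_TO_UV_NHEK_DN, from normal human epidermal keratinocytes, ranked 4 and scored -2.54 in the authors' deposited table. GENTILE_UV_HIGH_DOSE_DN, from fibroblasts given a high dose of UVC, scored -2.09 (FDR q = 0.00214) in the authors' deposited table. ENK_UV_RESPONSE_KERATINOCYTE_DN, from cultured keratinocytes, scored -2.02 (FDR q = 0.00461) in the authors' deposited table. The called DN sets were large, with a median of 245.5 genes against 45.5 for the DN sets that were not called. Among all listed sets these medians were 58 and 41, and the part of set size in the calls was not tested.

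The remaining DN sets did not pass. DAZARD_RESPONSE_TO_UV_SCC_DN, the squamous carcinoma counterpart of the keratinocyte set, lay just outside the threshold and scored -1.65 (FDR q = 0.0550) in the authors' deposited table. GENTILE_UV_LOW_DOSE_DN scored -1.39 and ENK_UV_RESPONSE_EPIDERMIS_DN, from irradiated skin, -1.44 in the authors' deposited table. Values above 0 were limited to 3 of the 14 sets: MURAKAMI_UV_RESPONSE_6HR_DN at 1.2, DACOSTA_ERCC3_ALLELE_XPCS_VS_TTD_DN at 1.09 and TAKAO_RESPONSE_TO_UVB_RADIATION_DN at 0.89 in the authors' deposited table. The allele set contrasts ERCC3 mutants with each other, so its ending does not stand for a fall after UV.

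Among the UP sets in this comparison, the authors' deposited table gave ENK_UV_RESPONSE_KERATINOCYTE_UP (456 genes) the largest NES, 2.53, at rank 47 of 2060 on the higher side. TAKAO_RESPONSE_TO_UVB_RADIATION_UP, raised in keratinocytes after UVB, scored 2.49 and DAZARD_RESPONSE_TO_UV_NHEK_UP 2.38 in the authors' deposited table. DACOSTA_UV_RESPONSE_VIA_ERCC3_UP followed with 2.11, DACOSTA_UV_RESPONSE_VIA_ERCC3_TTD_UP with 1.99 and DACOSTA_UV_RESPONSE_VIA_ERCC3_COMMON_UP with 1.75 in the authors' deposited table. The keratinocyte sets of ENK and DAZARD and the ERCC3 sets TTD and COMMON lay opposite to their DN counterparts, while both TAKAO sets were positive. GENTILE_UV_LOW_DOSE_UP also passed and scored 1.67 (FDR q = 0.0346) in the authors' deposited table, while GENTILE_UV_HIGH_DOSE_UP, of 19 genes, had 1.35 and did not. DAZARD_RESPONSE_TO_UV_SCC_UP, at 0.77, and ENK_UV_RESPONSE_EPIDERMIS_UP, at 1.15 in the authors' deposited table, did not pass either. Nor did DACOSTA_UV_RESPONSE_VIA_ERCC3_XPCS_UP, at 0.79, MURAKAMI_UV_RESPONSE_6HR_UP, at 0.97, and DACOSTA_ERCC3_ALLELE_XPCS_VS_TTD_UP, at -0.50. These last sets were not called in any comparison. The allele set contrasts ERCC3 mutants with each other, so its ending does not stand for a rise after UV.

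**Figure D1:**
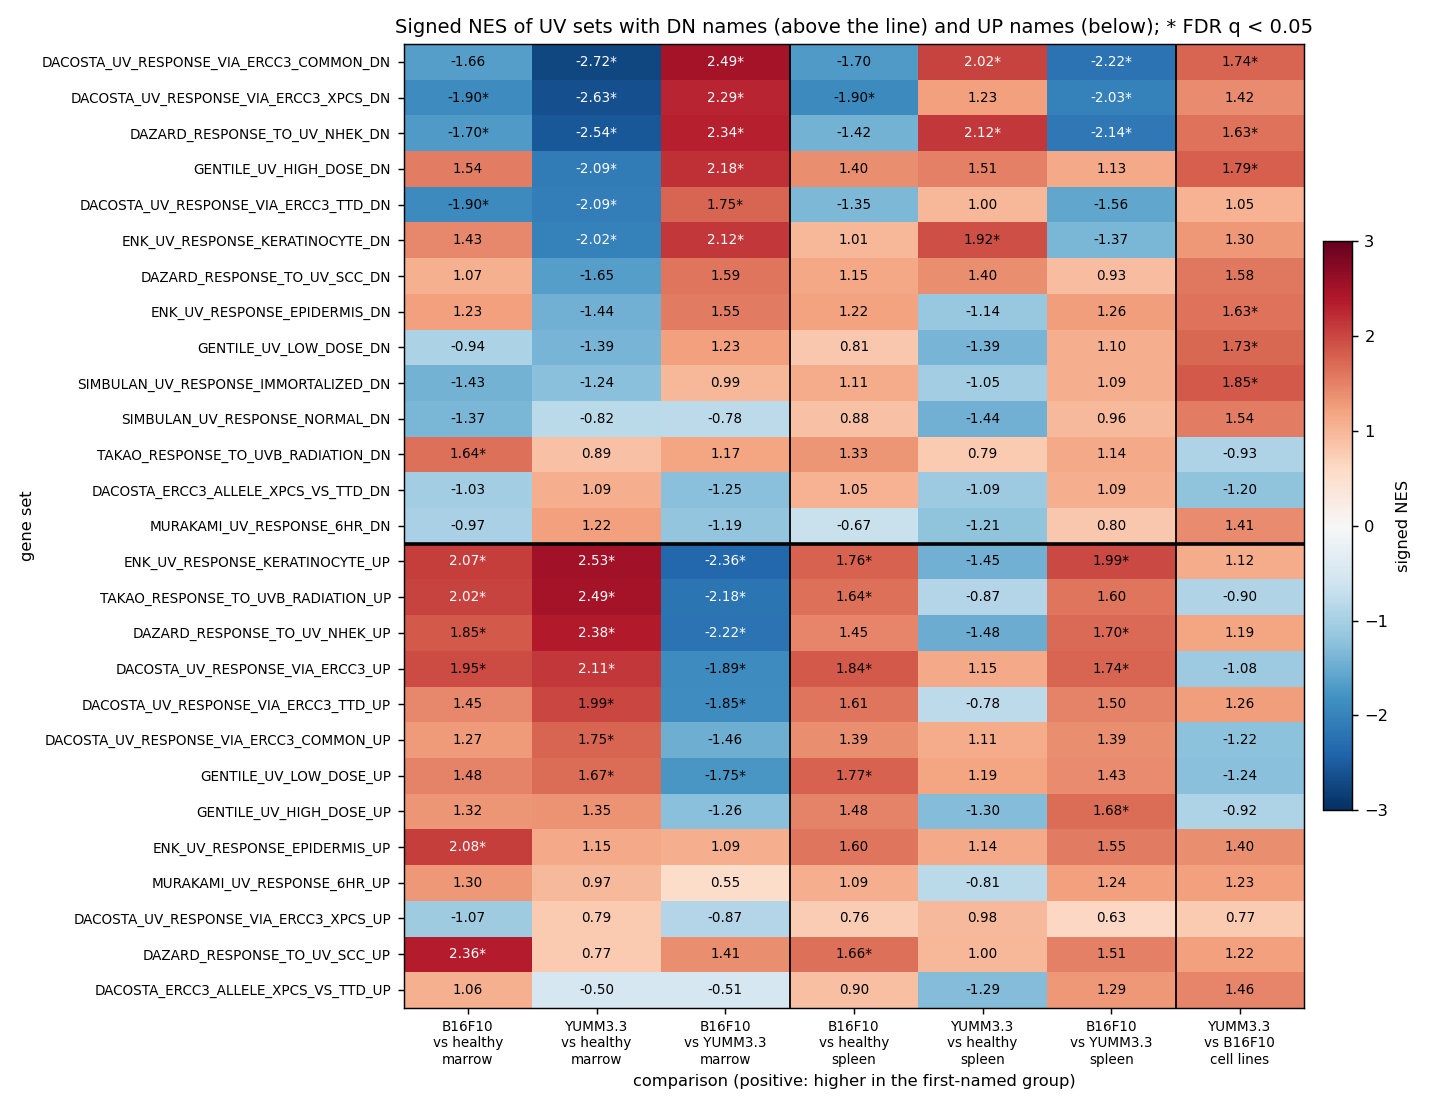
Signed NES of the 14 DN sets (above the thick line) and 13 UP sets (below it) in the 7 comparisons, from the authors' deposited table; colour and number give the signed NES (positive: higher in the first-named group) and an asterisk marks FDR q below 0.05. In YUMM3.3-bearing against healthy marrow the called DN sets run from -2.72 to -2.02 and the called UP sets from 1.67 to 2.53, and in spleen of the same contrast the called DN sets are positive.

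In the marrow of B16F10-bearing mice the UP sets were higher than in healthy marrow, while the DN sets were split. In each tissue, both comparisons with healthy animals use the same healthy libraries, so they are not separate evidence from each other. Of the 13 UP sets, 6 were called higher and 0 lower, beside 20.1% higher and 5.0% lower among all listed sets. Among all listed sets whose names end in UP, 24.0% were called higher. DAZARD_RESPONSE_TO_UV_SCC_UP led with 2.36 in the authors' deposited table, at rank 75 of 2182, followed by ENK_UV_RESPONSE_EPIDERMIS_UP with 2.08 (FDR q = 0.00059) and ENK_UV_RESPONSE_KERATINOCYTE_UP with 2.07. TAKAO_RESPONSE_TO_UVB_RADIATION_UP had 2.02, DACOSTA_UV_RESPONSE_VIA_ERCC3_UP 1.95 and DAZARD_RESPONSE_TO_UV_NHEK_UP 1.85 in the authors' deposited table. Of the 13 UP sets, 12 scored above 0 and 1 below, DACOSTA_UV_RESPONSE_VIA_ERCC3_XPCS_UP at -1.07, which was not called. The squamous carcinoma and epidermis sets, called here, were not called in YUMM3.3-bearing marrow, and that difference was not tested.

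Of the DN sets in B16F10-bearing marrow, 3 were called lower and 1 higher, with a median NES of -1.0. The lower ones were DACOSTA_UV_RESPONSE_VIA_ERCC3_TTD_DN at -1.90 (FDR q = 0.0104), DACOSTA_UV_RESPONSE_VIA_ERCC3_XPCS_DN at -1.90 (FDR q = 0.0112) and DAZARD_RESPONSE_TO_UV_NHEK_DN at -1.70 (FDR q = 0.0477) in the authors' deposited table. The higher one was TAKAO_RESPONSE_TO_UVB_RADIATION_DN at 1.64 (FDR q = 0.0340) in the authors' deposited table, so that both endings of the TAKAO pair were higher. DACOSTA_UV_RESPONSE_VIA_ERCC3_COMMON_DN scored -1.66 (FDR q = 0.0619) in the authors' deposited table and was not called. GENTILE_UV_HIGH_DOSE_DN, just outside the threshold, was on the other side at 1.54 (FDR q = 0.0588) in the authors' deposited table. Without the DACOSTA sets, the median of the DN sets here was 0.062 and 1 set remained called lower.

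Between the tumours in bone marrow, DN sets were higher with B16F10 and UP sets were higher with YUMM3.3. This comparison uses the same tumour-bearing libraries as the comparisons with healthy marrow, so its values are not separate evidence. Of the DN sets, 6 were called higher and 0 lower with B16F10, beside 8.09% higher and 8.40% lower among all listed sets, and of the UP sets 0 were called higher and 6 lower. The authors' deposited table gave DACOSTA_UV_RESPONSE_VIA_ERCC3_COMMON_DN an NES of 2.49, at rank 3 of 2007 on that side, and DAZARD_RESPONSE_TO_UV_NHEK_DN 2.34. On the YUMM3.3 side, ENK_UV_RESPONSE_KERATINOCYTE_UP scored -2.36 and DAZARD_RESPONSE_TO_UV_NHEK_UP -2.22 in the authors' deposited table. The medians were 1.57 for DN and -1.46 for UP sets, against 0.72 for all listed sets.

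In spleen of B16F10-bearing animals every one of the 13 UP sets had a positive NES, and 5 were called higher, beside 16.6% of all listed sets called higher and 1.6% lower. DACOSTA_UV_RESPONSE_VIA_ERCC3_UP led with 1.84 (FDR q = 0.00596) in the authors' deposited table, then GENTILE_UV_LOW_DOSE_UP with 1.77 and ENK_UV_RESPONSE_KERATINOCYTE_UP with 1.76. DAZARD_RESPONSE_TO_UV_SCC_UP had 1.66 and TAKAO_RESPONSE_TO_UVB_RADIATION_UP, just inside the threshold, 1.64 (FDR q = 0.0419) in the authors' deposited table. Positive scores were also the rule among all sets here, since 2900 of 3883 were positive. Among all listed sets whose names end in UP, 21.8% were called higher. Of the DN sets, 1 was called lower and 0 higher: DACOSTA_UV_RESPONSE_VIA_ERCC3_XPCS_DN, which scored -1.90 (FDR q = 0.0228) in the authors' deposited table. DACOSTA_UV_RESPONSE_VIA_ERCC3_COMMON_DN had -1.70 (FDR q = 0.0823) in the authors' deposited table and did not pass.

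In spleen of YUMM3.3-bearing animals 3 of the 14 DN sets (21.4%) were called higher than in healthy tissue and 0 lower, a share near the 15.6% higher, beside 5.31% lower, among all listed sets. All 3 had been called lower in marrow, and the other 3 DN sets called there did not pass in spleen. DAZARD_RESPONSE_TO_UV_NHEK_DN scored 2.12 (FDR q = 9e-05), DACOSTA_UV_RESPONSE_VIA_ERCC3_COMMON_DN 2.02 (FDR q = 0.00048) and ENK_UV_RESPONSE_KERATINOCYTE_DN 1.92 (FDR q = 0.00177) in the authors' deposited table. Their ranks on the higher side were far from the top, with DAZARD_RESPONSE_TO_UV_NHEK_DN at 252 of 1876 in the authors' deposited table. GENTILE_UV_HIGH_DOSE_DN scored 1.51 (FDR q = 0.0713) in the authors' deposited table and did not pass, nor did the ERCC3 sets by allele, with DACOSTA_UV_RESPONSE_VIA_ERCC3_XPCS_DN at 1.23 and DACOSTA_UV_RESPONSE_VIA_ERCC3_TTD_DN at 1.00 in the authors' deposited table. No UP set was called in either direction by the deposited FDR q, and the lowest, DAZARD_RESPONSE_TO_UV_NHEK_UP, had -1.48 (FDR q = 0.121) in the authors' deposited table. GENTILE_UV_LOW_DOSE_DN, at -1.39, and ENK_UV_RESPONSE_EPIDERMIS_DN, at -1.14 in the authors' deposited table, were negative in spleen as in marrow, and neither passed. Without the DACOSTA sets the median of the DN sets turned from 0.90 to -0.13.

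Between the tumours in spleen, which again reuses those libraries, the DN sets called in both tissues lay on the opposite side from marrow, while the median NES over all 14 DN sets was positive in each, 0.95 in spleen and 1.57 in marrow. Of the 14 DN sets, 6 had the same sign in both tissues. Of the DN sets, 3 were called lower and 0 higher with B16F10, beside 1.47% lower and 9.63% higher among all listed sets. DACOSTA_UV_RESPONSE_VIA_ERCC3_COMMON_DN ranked 7 of 1057 on the lower side and scored -2.22 (FDR q = 0.00047) in the authors' deposited table, DAZARD_RESPONSE_TO_UV_NHEK_DN had -2.14 and DACOSTA_UV_RESPONSE_VIA_ERCC3_XPCS_DN -2.03. These are the same sets that led on the higher side in marrow. Of the UP sets, 4 were called higher and 0 lower, led by ENK_UV_RESPONSE_KERATINOCYTE_UP with 1.99 (FDR q = 0.00232) in the authors' deposited table. Among all listed sets whose names end in UP, 14.9% were called higher here, and 2826 of all 3883 listed sets were positive. GENTILE_UV_HIGH_DOSE_UP, at 1.68 (FDR q = 0.0455) in the authors' deposited table, was called in this comparison and in none of the other 6.

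**Figure D2:**
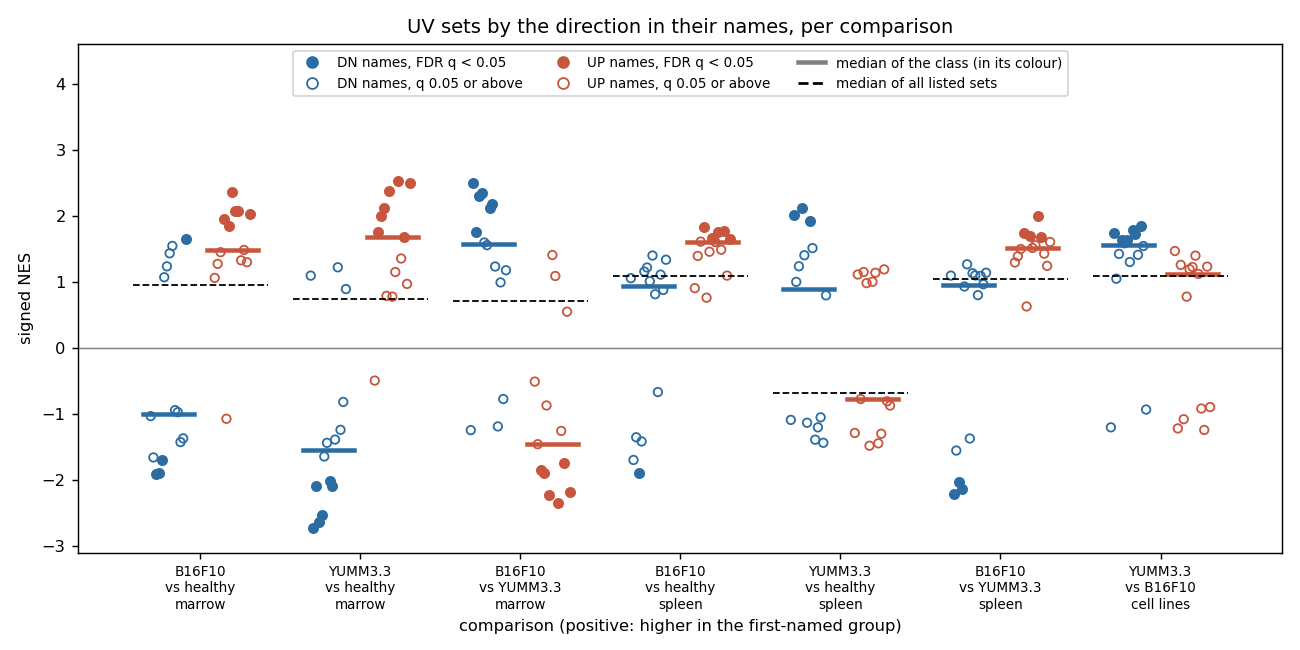
Signed NES (vertical axis; positive: higher in the first-named group) of each DN set (blue) and UP set (red) in each comparison; filled points have FDR q below 0.05, thick lines are class medians and dashed lines the median of all listed sets. The DN median is -1.54 and the UP median 1.67 in YUMM3.3-bearing against healthy marrow, and the called points of the tumour comparison change sides between marrow and spleen.

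Marrow and spleen rest on separate libraries, so the same contrast can be set side by side. For B16F10-bearing against healthy, 43 of the 56 sets (76.8%) had the same sign in marrow and spleen, beside 70.2% of all listed sets. For YUMM3.3-bearing against healthy, 19 of 56 (33.9%) had the same sign, beside 43.0% of all listed sets. The 7 sets called in both tissues with B16F10 all kept their direction. They were DACOSTA_UV_RESPONSE_VIA_ERCC3_XPCS_DN on the lower side and, on the higher side, DACOSTA_UV_RESPONSE_VIA_ERCC3_UP, DAZARD_RESPONSE_TO_UV_SCC_UP, DAZARD_UV_RESPONSE_CLUSTER_G2, ENK_UV_RESPONSE_KERATINOCYTE_UP, SESTO_RESPONSE_TO_UV_C7 and TAKAO_RESPONSE_TO_UVB_RADIATION_UP. The 5 sets called in both tissues with YUMM3.3 all had opposite directions, lower in marrow and higher in spleen. These were DACOSTA_UV_RESPONSE_VIA_ERCC3_COMMON_DN, DAZARD_RESPONSE_TO_UV_NHEK_DN, DAZARD_UV_RESPONSE_CLUSTER_G6, ENK_UV_RESPONSE_KERATINOCYTE_DN and GENTILE_UV_RESPONSE_CLUSTER_D9. Among all listed sets, 223 were called in both tissues with YUMM3.3, 125 of them with opposite directions, against 2 of 425 with B16F10. Opposite directions with YUMM3.3 were thus also common among all sets, and the difference between tissues was not tested.

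**Figure D3:**
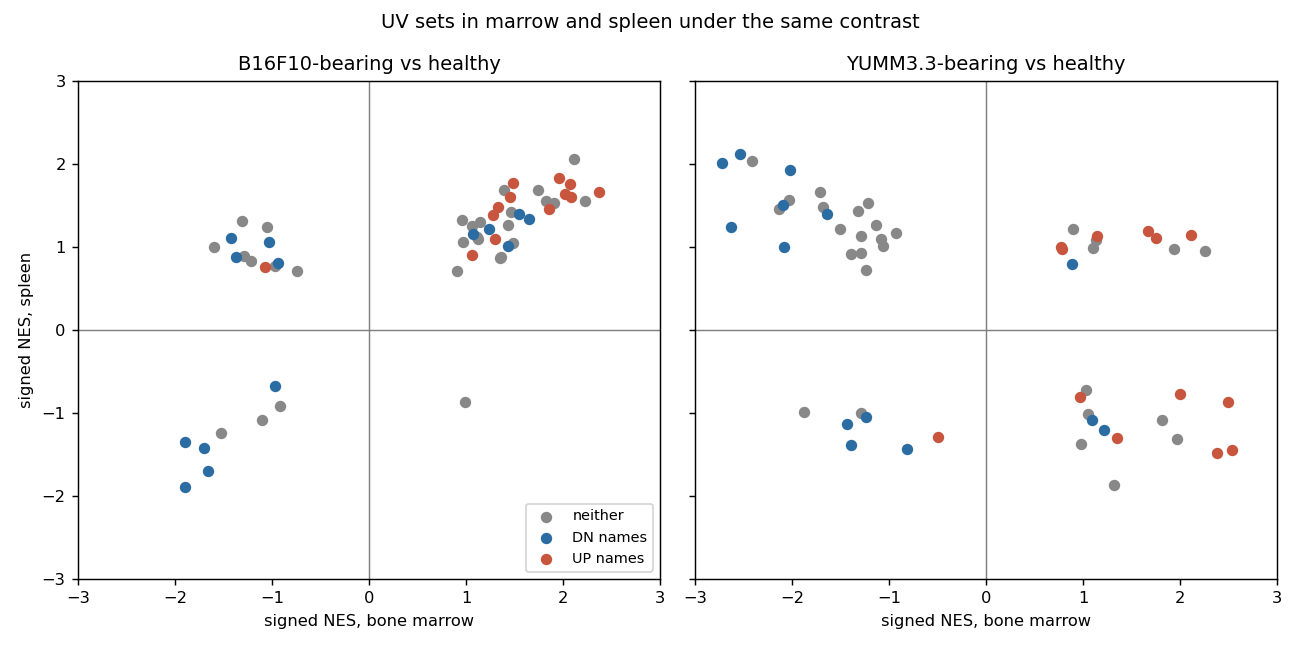
Signed NES of the 56 UV sets in bone marrow (horizontal axis) and spleen (vertical axis), for B16F10-bearing against healthy (left) and YUMM3.3-bearing against healthy (right); colours give the ending of the name. On the left 43 of 56 sets have the same sign in both tissues and on the right 19 of 56.

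Between the cultured lines, where no host tissue is involved, DN sets were higher in YUMM3.3 than in B16F10. Of the 14 DN sets, 6 were called higher and 0 lower, beside 11.8% higher and 1.47% lower among all 3871 sets listed for the lines. Among all listed sets whose names end in DN, 15.5% were called higher here, and 2839 of all 3871 listed sets were positive. SIMBULAN_UV_RESPONSE_IMMORTALIZED_DN, from immortalized keratinocytes, had the largest NES, 1.85 (FDR q = 0.00282), in the authors' deposited table. GENTILE_UV_HIGH_DOSE_DN followed with 1.79 and DACOSTA_UV_RESPONSE_VIA_ERCC3_COMMON_DN with 1.74 in the authors' deposited table. The low-dose set GENTILE_UV_LOW_DOSE_DN had 1.73, and DAZARD_RESPONSE_TO_UV_NHEK_DN and ENK_UV_RESPONSE_EPIDERMIS_DN each had 1.63 in the authors' deposited table. The low-dose, epidermis and immortalized keratinocyte sets were called in the lines alone among the 7 comparisons. DAZARD_RESPONSE_TO_UV_SCC_DN lay just outside the threshold at 1.58 (FDR q = 0.0508) in the authors' deposited table.

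None of the UP sets was called between the lines by the deposited FDR q, and their values ran from -1.24 to 1.46. Their median, 1.12, lay near that of all listed sets, 1.08, while the DN median was 1.56. TAKAO_RESPONSE_TO_UVB_RADIATION_UP, called in 4 of the 6 myeloid comparisons, scored -0.90 in the authors' deposited table. The largest score of a UV set between the lines was 1.85 in size and that in YUMM3.3-bearing marrow 2.72, a difference that was not tested.

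Of the sets without an ending, 21 are expression clusters from GENTILE, DAZARD and SESTO. The 7 GENTILE clusters, known as groups of genes lowered in fibroblasts after high-dose UVC, lay in YUMM3.3-bearing marrow on the side of the called DN sets. All 7 had a negative NES there, from -2.03 to -0.93, and 4 were called lower, beside 6.52% of all listed sets. GENTILE_UV_RESPONSE_CLUSTER_D4 had -2.03 (FDR q = 0.00428) and GENTILE_UV_RESPONSE_CLUSTER_D2 -1.88 (FDR q = 0.0142) in the authors' deposited table, and GENTILE_UV_RESPONSE_CLUSTER_D8 lay just inside the threshold at -1.68 (FDR q = 0.0449). These sets hold 22 to 44 genes, fewer than most of the called DN sets. They come from the same source and dose as GENTILE_UV_HIGH_DOSE_DN, and genes in common could not be counted. Their values are thus not separate evidence from that set. All 7 were positive in B16F10-bearing against YUMM3.3-bearing marrow and between the lines, with 3 called higher in each, beside 8.09% and 11.8% of all listed sets. Among all listed sets, 2007 of 3883 were positive in that marrow comparison and 2839 of 3871 between the lines. In B16F10-bearing marrow and spleen against healthy, 0 of the 7 were called in either direction by the deposited FDR q.

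The DAZARD clusters, from keratinocytes after UVB, were divided. In YUMM3.3-bearing marrow DAZARD_UV_RESPONSE_CLUSTER_G1 scored 2.25, DAZARD_UV_RESPONSE_CLUSTER_G2 1.97 and DAZARD_UV_RESPONSE_CLUSTER_G4 1.93 in the authors' deposited table, while DAZARD_UV_RESPONSE_CLUSTER_G6, the largest with 118 genes, had -2.41. DAZARD_UV_RESPONSE_CLUSTER_G6 was higher in spleen, with 2.04 (FDR q = 0.00034), and in the YUMM3.3 line, with 1.59 (FDR q = 0.0491), in the authors' deposited table. DAZARD_UV_RESPONSE_CLUSTER_G24 was lower in YUMM3.3-bearing spleen, at -1.87 (FDR q = 0.0184) in the authors' deposited table, and was the sole UV set called lower there. It was higher in the YUMM3.3 line, at 1.77 in the authors' deposited table.

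The 9 SESTO clusters, from keratinocytes after UVB, differed among themselves. In B16F10-bearing marrow 4 of 9 were called higher and 0 lower, beside 20.1% and 5.0% of all listed sets, led by SESTO_RESPONSE_TO_UV_C0 with 2.22 (FDR q = 5e-05) and SESTO_RESPONSE_TO_UV_C7 with 2.11 (FDR q = 0.00034) in the authors' deposited table. SESTO_RESPONSE_TO_UV_C7 was the UV set with the largest positive NES in B16F10-bearing spleen, 2.06, and in B16F10-bearing against YUMM3.3-bearing spleen, 2.05, in the authors' deposited table. In YUMM3.3-bearing animals it had -1.22 in marrow and 1.53 in spleen in the authors' deposited table, neither of them called. SESTO_RESPONSE_TO_UV_C6 was called higher in YUMM3.3-bearing marrow, at 1.81 (FDR q = 0.0110), and in the YUMM3.3 line, at 1.59 (FDR q = 0.0455). It was not called in B16F10-bearing marrow, at 1.39 in the authors' deposited table. In B16F10-bearing spleen it was called higher, at 1.69 (FDR q = 0.0280), while in YUMM3.3-bearing spleen it had -1.08 and was not called. Between the tumours in spleen it was called higher with B16F10, at 1.74 (FDR q = 0.0312) in the authors' deposited table. SESTO_RESPONSE_TO_UV_C5 stood at -2.14 (FDR q = 0.00103) in YUMM3.3-bearing marrow and -1.11, not called, in B16F10-bearing marrow in the authors' deposited table. The 5 BRUINS sets, from mouse embryo fibroblasts after UVC, were called once, higher in the YUMM3.3 line. MURAKAMI_UV_RESPONSE_24HR was called between the lines with 1.77 in the authors' deposited table, and the corresponding sets at 6 h in none of the 7 comparisons. The 2 KYNG sets were not called in any comparison by the deposited FDR q.

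**Figure D4:**
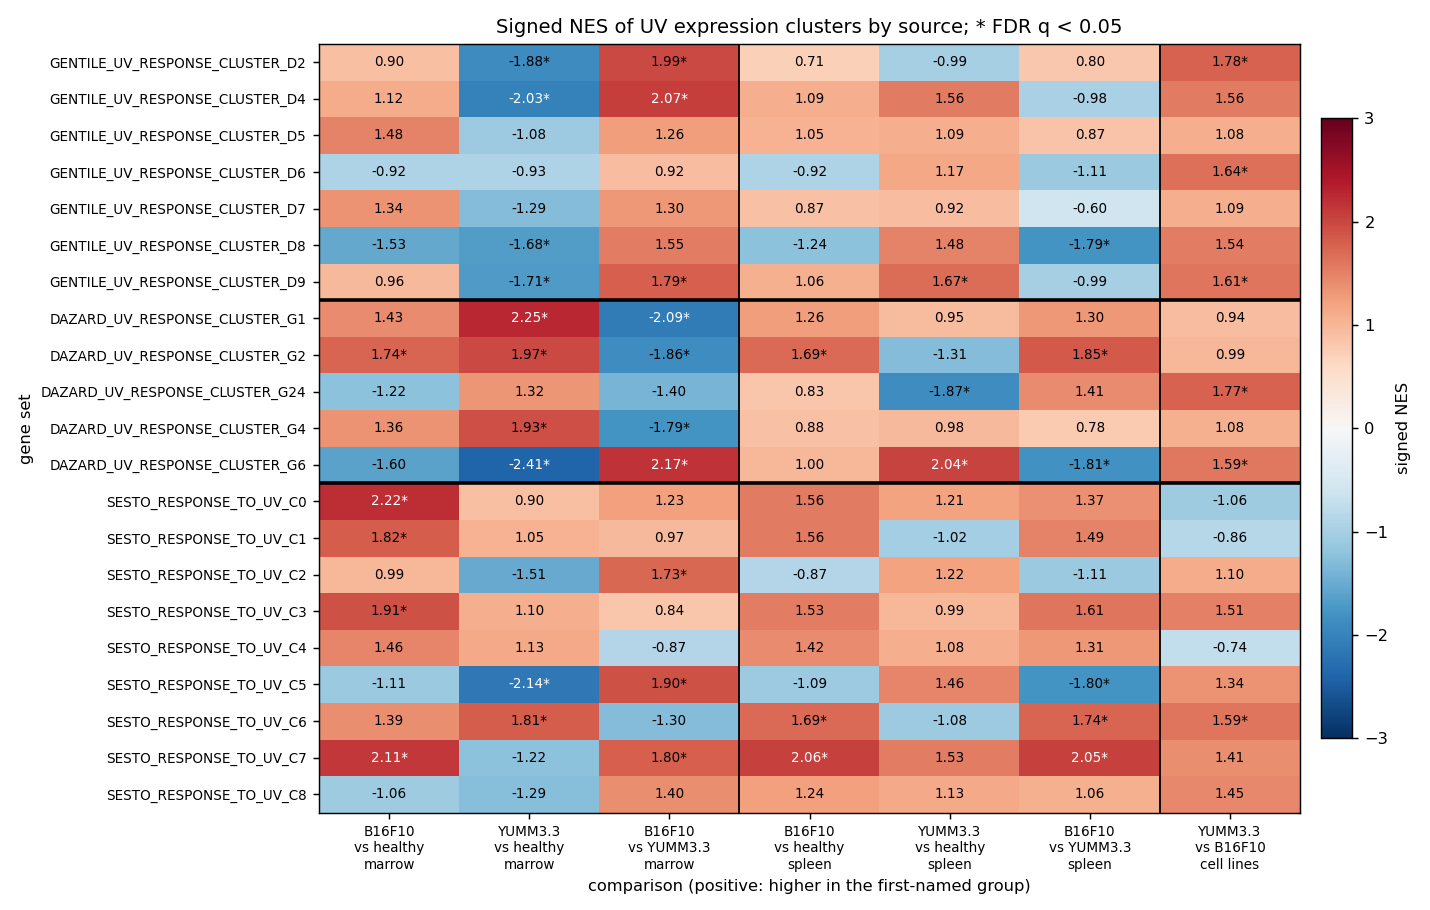
Signed NES of the 21 UV expression clusters (rows, divided by source) in the 7 comparisons (columns), from the authors' deposited table; colour and number give the signed NES (positive: higher in the first-named group) and an asterisk marks FDR q below 0.05. All 7 GENTILE clusters are negative in YUMM3.3-bearing against healthy marrow, and SESTO_RESPONSE_TO_UV_C7 reaches 2.11 in B16F10-bearing against healthy marrow.

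The leading edge of a set is the part of its genes that lies before the maximum of the running score. In YUMM3.3-bearing marrow, 59% of the genes of DACOSTA_UV_RESPONSE_VIA_ERCC3_COMMON_DN lay within the first 25% of the ranked genes at the healthy end in the authors' deposited table. For DACOSTA_UV_RESPONSE_VIA_ERCC3_XPCS_DN this was 56% within 18%, and for DAZARD_RESPONSE_TO_UV_NHEK_DN 57% within 23% in the authors' deposited table. Most genes of each of these sets thus lay before the maximum. TAKAO_RESPONSE_TO_UVB_RADIATION_UP was more concentrated, with 46% of its genes within the first 10% at the YUMM3.3 end in the authors' deposited table. The ratio of these shares had a median of 2.40 for the 6 called DN sets and 2.14 for the 7 called UP sets, beside 2.38 and 3.3 for all sets called lower and higher.

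**Figure D5:**
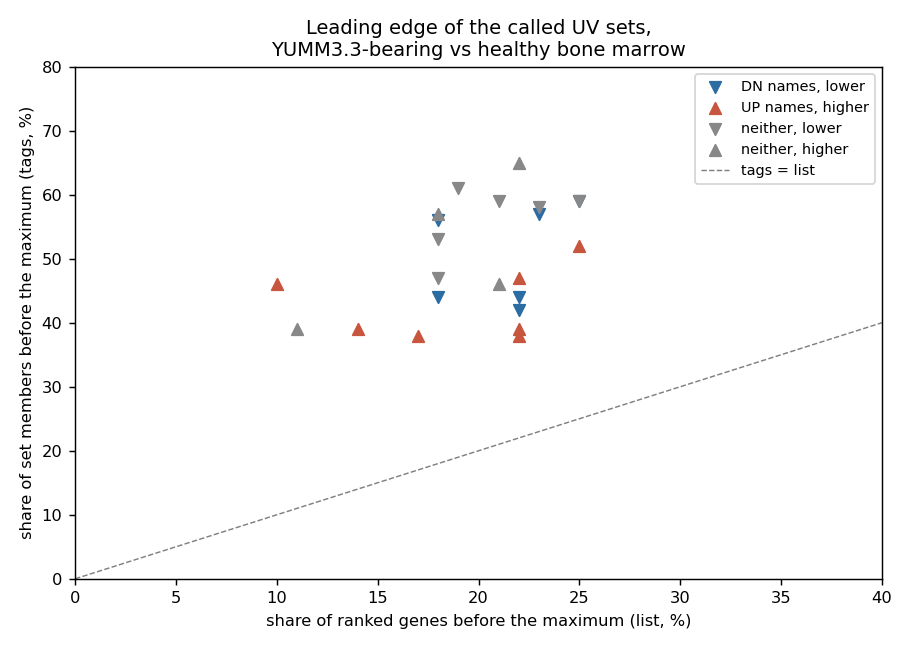
Share of a set's genes before the maximum (tags, vertical axis, %) against the share of ranked genes before it (list, horizontal axis, %), for the UV sets called in YUMM3.3-bearing against healthy marrow; downward triangles are lower and upward triangles higher, colours give the ending of the name, and overlapping points hide each other. All points lie above the dashed line of equal shares, with called DN sets between 42% and 59% tags.

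The sets of nucleotide excision repair, which removes UV lesions, were called mainly in YUMM3.3-bearing spleen. Of 10 such sets, 2 were called higher and 0 lower in B16F10-bearing marrow, a share of 20.0% beside 20.1% of all listed sets called higher, and 2 higher and 0 lower in YUMM3.3-bearing marrow, beside 9.68%. REACTOME_FORMATION_OF_TC_NER_PRE_INCISION_COMPLEX, the first steps of the transcription-coupled branch, was called in both, with 1.75 and 1.62 in the authors' deposited table. In YUMM3.3-bearing spleen 7 of 10 were called higher, beside 15.6% of all listed sets, and 0 lower, with a median NES of 1.89 and KEGG_NUCLEOTIDE_EXCISION_REPAIR at 2.10 in the authors' deposited table. The largest was REACTOME_GAP_FILLING_DNA_REPAIR_SYNTHESIS_AND_LIGATION_IN_GG_NER at 2.15. Not called were REACTOME_DNA_DAMAGE_RECOGNITION_IN_GG_NER at 1.05, REACTOME_FORMATION_OF_INCISION_COMPLEX_IN_GG_NER at 1.12 and REACTOME_FORMATION_OF_TC_NER_PRE_INCISION_COMPLEX at 1.31 in the authors' deposited table. All are parts of the same pathway, and genes in common could not be counted, so the calls are not separate evidence. None of the 10 was called in B16F10-bearing spleen, between the tumours in spleen or between the lines by the deposited FDR q, and 1 was called lower between the tumours in marrow. The list of other damaging agents took sets outside the UV list whose names hold a word for DNA damage or such an agent. Its word GAMMA also took 4 names that name no radiation. In the list, 10 sets have DN names. In YUMM3.3-bearing marrow 0 of the 10 were called higher and 2 lower, beside 9.68% higher and 6.52% lower among all listed sets. Of 13 with UP names listed there, 0 were called higher and 1 lower, and of 35 with neither ending 4 were called higher (11.4%) and 1 lower. KYNG_DNA_DAMAGE_BY_UV was left out of the UV sets because UV ends its name, and is counted among the 35 with neither ending. It scored 1.2 in YUMM3.3-bearing marrow in the authors' deposited table and was called in none of the 7 comparisons.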

How the data were processed

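The data were 14 gene set enrichment reports, 2 for each of 7 comparisons, made from 20 RNA-seq libraries (14 of myeloid cells, 6 of lines) whose groups come from the labels. The submitters' processing notes name DESeq2 1.22.2, featureCounts 1.6.0, STAR 2.7.1a, FastQC 0.11.8 and mm10, with their roles not given in the sources used here. Deposited scores are the enrichment score and its normalised form (NES), beside set size, rank at the maximum score and leading edge, per the file headers. Also deposited are p-values and q-values: a nominal p, an FDR q and a family-wise (FWER) p, per the file headers. Library depth and the ranking metric are unknown here. The permutation scheme is also unknown, except that relabelling libraries cannot have given the nominal p-values of the comparisons checked. These were B16F10-bearing and YUMM3.3-bearing against healthy marrow, B16F10-bearing against healthy spleen, and the lines. Their smallest nonzero nominal p-values were 0.00147, 0.00149, 0.00103 and 0.0014, in that order. Exact one-sided relabelling cannot give less than 0.05, 0.1, 0.167 and 0.05.

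Each myeloid report was read as listing what was higher in the group it names first, and the line reports by their up and down labels. As a check, the sign of the tumour comparison matched that of the difference between the comparisons with healthy in 77.0% of sets in marrow and 85.4% in spleen. A joint reversal within a tissue or of the lines would not be seen. Counts, medians and ranks were computed with pandas 2.3.3, and the counting was tested on simulated reports. The alternatives were FDR q below 0.25, FWER p below 0.05, leaving out DACOSTA sets, sets of 25 to 200 genes, and each source counted once.

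The UV sets and the repair and damage lists were chosen with earlier results of these data known. Sets named were all DN and UP sets called at least once, the 3 largest UV sets by NES size on each side, those next to the threshold, series by dose, time, allele or tissue, and the 5 sets outside the rule nearest to the median of the DN sets. Some sets without an ending are given as counts.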

Additional observations from a re-analysis of the deposited data

How the results depend on the processing

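At FDR q below 0.25 the DN sets called higher rose from 1 to 4 in B16F10-bearing marrow, from 0 to 2 in B16F10-bearing spleen, from 3 to 5 in YUMM3.3-bearing spleen and from 6 to 11 in the lines, and those called lower from 3 to 6, from 1 to 3 and from 0 to 2 in the same 3 myeloid comparisons. The UP sets called higher then went from 6 to 11 in B16F10-bearing marrow, from 5 to 10 in B16F10-bearing spleen, from 4 to 10 between the tumours in spleen, from 0 to 1 between them in marrow and from 0 to 2 in the lines, and those called lower from 0 to 4 in YUMM3.3-bearing spleen. With a FWER p below 0.05, DN calls fell to 0 higher and 0 lower in B16F10-bearing marrow, 3 lower in YUMM3.3-bearing marrow, 0 lower in B16F10-bearing spleen, 1 higher in YUMM3.3-bearing spleen and 0 higher in the lines. The UP calls fell to 1 higher in B16F10-bearing marrow, 4 higher in YUMM3.3-bearing marrow, 3 lower between the tumours in marrow, and 0 higher in B16F10-bearing spleen and between the tumours in spleen. Over single DN and UP sets, the FWER threshold ended 38 calls and the looser q added 50. The share of all listed sets past either threshold is not given here. These counts thus do not say how the UV sets compare with the rest. At FDR q below 0.05, 20.1% of all listed sets were already called higher in B16F10-bearing marrow and 16.6% in B16F10-bearing spleen.

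Without DACOSTA sets, the DN sets called lower numbered 1 in B16F10-bearing marrow, 3 in YUMM3.3-bearing marrow, 0 in B16F10-bearing spleen and 1 between the tumours in spleen, 3 were called higher between the tumours in marrow, and 4 UP sets were called higher in YUMM3.3-bearing marrow. The DN median turned from -1.0 to 0.0622 in B16F10-bearing marrow and from 0.90 to -0.13 in YUMM3.3-bearing spleen. With sets of 25 to 200 genes, which leaves 8 DN and 7 UP sets, DN calls were 2 lower in YUMM3.3-bearing marrow, 2 higher between the tumours in marrow, 0 higher in YUMM3.3-bearing spleen, 1 lower between the tumours in spleen and 2 higher in the lines. The UP calls were then 3 higher in B16F10-bearing marrow, 4 higher in YUMM3.3-bearing marrow, 3 lower between the tumours in marrow, 2 higher in B16F10-bearing spleen and 1 higher between the tumours in spleen, and the DN median in YUMM3.3-bearing spleen again turned to -0.13. With each source counted once, the DN median was -0.32 in B16F10-bearing marrow and 0.39 in YUMM3.3-bearing spleen, and the UP median in YUMM3.3-bearing spleen was -0.20. Fewer sets were counted in these alternatives by construction, and the cause of the turned medians was not tested. In the list of other damaging agents, 4 names taken by the token GAMMA name no radiation, and leaving them out, a choice made after seeing the data, changed no count by more than 1.5 times.

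No paired analysis was possible because the reports hold no value per library. Leaving out each library in turn was not run for the same reason.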

Other observations

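Over the 7 comparisons, the set outside the UV names nearest to the median of the DN sets was RAO_BOUND_BY_SALL4_ISOFORM_A, at a Euclidean distance of 0.32 in signed NES among 3812 sets, and the nearest 5 lay within 0.46, CADWELL_ATG16L1_TARGETS_DN, WAMUNYOKOLI_OVARIAN_CANCER_LMP_DN and RAO_BOUND_BY_SALL4_ISOFORM_B among them. That median mixes sets of opposite sign, so, after the values were seen, the same search was made for the leading DN and UP sets. Nearest to DACOSTA_UV_RESPONSE_VIA_ERCC3_COMMON_DN was GABRIELY_MIR21_TARGETS, targets of the microRNA miR-21, at 0.84, followed by JOHNSTONE_PARVB_TARGETS_2_DN at 1.16 and ZHENG_FOXP3_TARGETS_IN_THYMUS_UP at 1.18. GABRIELY_MIR21_TARGETS scored an NES of -2.59 in YUMM3.3-bearing marrow, 1.71 in YUMM3.3-bearing spleen and -2.23 between the tumours in spleen in the authors' deposited table. DE_YY1_TARGETS_DN came next at 1.26.

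Nearest to ENK_UV_RESPONSE_KERATINOCYTE_UP were LU_EZH2_TARGETS_UP at 0.74, HSIAO_HOUSEKEEPING_GENES, a set of genes expressed in most tissues, at 0.83, and NATSUME_RESPONSE_TO_INTERFERON_BETA_DN at 0.83. HSIAO_HOUSEKEEPING_GENES scored an NES of 2.81 in YUMM3.3-bearing marrow and -0.98 in YUMM3.3-bearing spleen in the authors' deposited table. Overlap in genes with the UV sets was not measured.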
